A study of Mus musculus with 6 samples.

Results

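The small heat shock proteins of muscle and their partner Bag3 were followed through 8 genes: Hspb1, Hspb2, Hspb3, Hspb6, Hspb7, Hspb8, Cryab and Bag3. They were taken by symbol, as every probe set annotated with exactly 1 gene symbol from that list. This gave 15 probe sets of 45101 on the array, and a probe set is a group of short oligonucleotides that together report 1 transcript. All 8 genes had at least 1 probe set, 4 of them had more than 1, and all 15 probe sets passed the filter on low signal.

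Total RNA came from primary mouse myoblasts, precursors of muscle fibres that can differentiate and fuse in culture, and was read on Affymetrix GeneChip arrays covering the mouse genome. The control group had 3 arrays of primary myoblasts, and the LncMyoD shRNA group had 3 arrays of primary myoblasts treated with a short hairpin RNA against LncMyoD, a long non-coding RNA studied for its part in muscle differentiation. The hairpin was carried in the vector Tet-pLKO-puro by a lentivirus made in 293T cells, and both groups are labelled as 21 days old. They do not say what virus or hairpin the controls received, whether an inducer was added, how many hairpin sequences were used, or whether the profiled cells were in growth medium or in the low-serum differentiation medium. The replicates are called biological, with no mention of separate animals or cultures, so p-values stand for the spread among these arrays, possibly a technical one. The knockdown of LncMyoD is not analysed here, because no identifier on the array was found for it.

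Small heat shock proteins share an alpha-crystallin domain, assemble into oligomers and hold unfolding proteins without using ATP. In striated muscle they associate with desmin, titin, filamin C and actin at the Z-disc and I-band, where filaments are under mechanical strain. Bag3 is a co-chaperone that joins Hspb8 to the chaperones of the Hsp70 class, and this complex passes damaged filamin to autophagy. Several members are made at high levels as myoblasts differentiate, and Hspb1 and Cryab are also induced by stress through heat shock factor 1.

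In the shRNA samples Hspb7 and Hspb8 fell on all 3 of their probe sets, and Hspb3, Bag3 and Hspb2 on the 1 each had. Hspb6, also with 1 probe set, rose, Cryab fell on 2 of its 3 probe sets, and neither probe set of Hspb1 passed the threshold. The largest change was that of Hspb7, which fell 2.69-fold on its brightest probe set. The other decreases ran from 1.09-fold for a Cryab probe set to 1.76-fold for a probe set of Hspb8, and Hspb6 rose 1.37-fold. By probe set, 11 of 15 were lower, 1 was higher and 3 did not pass a limma adjusted p of 0.05. Over all 27022 probe sets tested 53.9% passed, 23.5% as lower and 30.4% as higher. The median difference, shRNA minus control, was -0.43 on the log2 scale over the 15 probe sets and 0.021 over all tested. It was -0.29 over the 12 member probe sets without Hspb7. By gene, with 1 probe set each, it was -0.3 over the 8 members and 0.046 over all. With 1 probe set for each gene, its brightest, 5 of 8 members were lower and 1 higher, against 22.8% lower and 35.7% higher of 12408 genes. Control and shRNA arrays were fully separated in 13 of the 15 probe sets, which was so in 59.5% of all tested. With 1 probe set for each gene they were separated in 6 of 8 members and in 8038 of 12408 genes, a smaller contrast.

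**Figure D1:**
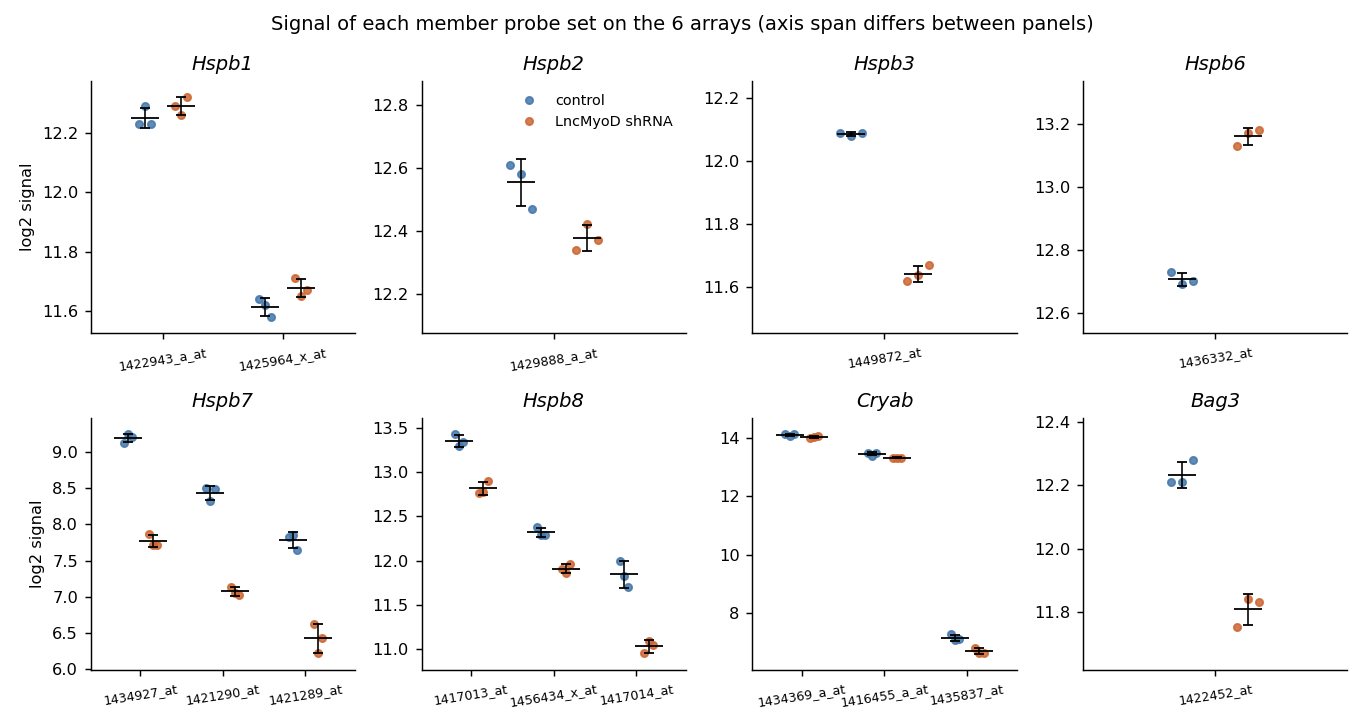
Log2 signal of each member probe set, with a panel for each gene, probe sets on the horizontal axis, blue points for the 3 control arrays and orange points for the 3 LncMyoD shRNA arrays. Black bars mark the mean ± SD of each group; the span of the vertical axis differs between panels, and only the brightest probe sets of Hspb1 and Cryab have overlapping groups.

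The arrays themselves were alike within groups, with correlations over the tested probe sets of 0.996 to 0.997 within a group and 0.976 to 0.981 between groups. Muscle identity was clear in both: the mean signal of Myog stood at 14.13 in controls and 14.00 with the hairpin, Des at 13.22 and 13.26, and Myod1 at 13.80 and 13.82 (mean log2 signal). Over the 7 muscle markers the mean log2 signal was 12.24 to 12.35 on the control arrays and 12.49 to 12.57 on the shRNA arrays, and 3 rose and 1, Myog, fell. Those that rose were the satellite cell factor Pax7 (11.40 to 12.06, limma adjusted p = 2.68e-07), the early myogenic factor Myf5 (7.43 to 8.05, 0.000384) and Cdh15, M-cadherin (12.32 to 12.72, 1.23e-06). All 4 endothelial markers and both measured adipocyte markers lay below the filter in both groups, as did 3 of 4 leukocyte and 3 of 5 fibroblast markers. Of the remaining fibroblast markers Pdgfra rose from 6.63 to 7.51, and Col1a1 had means of 7.18 and 6.76, a difference of -0.42 (limma adjusted p = 0.0301) whose call was lost without any 1 control array or shRNA array 1 (-0.46 to -0.24, limma adjusted p of 0.0543 to 0.125). The remaining leukocyte marker, Cd68, had means of 6.40 and 6.73, a difference of 0.33 (limma adjusted p = 0.0331) whose call was lost without control 2 or 3 or any 1 shRNA array (0.28 to 0.35, limma adjusted p of 0.0606 to 0.119). Among 6 markers of smooth muscle and pericytes, whose mean signal was 8.55 to 8.64 and 8.46 to 8.60, Tagln fell from 11.28 to 10.54. Acta2 stood at 14.28 and 14.34 on its representative probe set, while 1 of its 2 other tested probe sets was called lower. Cultured myoblasts are known to express both genes. The 3' to 5' log2 ratio of the array's actin controls, a sign of RNA integrity, was 0.51 ± 0.0179 in controls and 0.55 ± 0.0175 in shRNA samples (SD, n = 3), and that of GAPDH 0.14 ± 0.0454 and 0.23 ± 0.0376, each with a two-sided exact permutation p = 0.1, which is the lowest p available from 20 assignments. The part of these differences in the results on the members was not tested. In bulk RNA of this kind, fewer cells that express a gene and less of its RNA in each cell cannot be told apart.

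Hspb7, a small heat shock protein of heart and skeletal muscle that binds filamin C, was the dimmest member by its brightest probe set and the one that changed most. Its probe set 1434927_at read 9.12, 9.24 and 9.20 on the control arrays and 7.86, 7.72 and 7.71 on the shRNA arrays (log2 signal). The highest shRNA array lay 1.26 below the lowest control. The difference was -1.43 (SE 0.0835, limma adjusted p = 2.4e-08), and 0.326% of all probe sets tested had a difference this low or lower. The dimmer probe set 1421290_at read 8.50, 8.32 and 8.48 in controls and 7.14, 7.05 and 7.03 in shRNA samples, a 2.56-fold decrease (limma adjusted p = 1.32e-07). The dimmest, 1421289_at, read 7.83, 7.85 and 7.65 against 6.63, 6.22 and 6.43, a 2.55-fold decrease (limma adjusted p = 1.57e-06). All 3 therefore separated the groups by at least 1.02 and differed from each other in the size of the decrease by no more than 0.074. The shRNA mean of the dimmest, 6.42, lay under 6.50, the lowest mean signal that was tested, so its signal may be near background there; detection calls were not used here. These were the only member probe sets to fall at least 2-fold, 3 of 15, against 1.42% of all tested. As all 3 report Hspb7, by gene this was 1 of 8 members, against 198 of 12408 genes.

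Hspb8 and Bag3 form 1 complex in chaperone-assisted selective autophagy, and both fell. Hspb8 was bright: 1417013_at read 13.43, 13.30 and 13.34 in controls and 12.77, 12.78 and 12.90 in shRNA samples. Each shRNA array was at least 0.41 below each control, and the difference was -0.54 (SE 0.0443, limma adjusted p = 4.88e-07). Its probe set 1417014_at, at 12.00, 11.83 and 11.70 against 10.95, 11.09 and 11.05, changed most, by -0.81 (SE 0.0674, limma adjusted p = 5.2e-07). The cross-hybridization-prone 1456434_x_at, at 12.38, 12.29 and 12.29 against 11.91, 11.86 and 11.96, changed by -0.41 (limma adjusted p = 4.07e-06). Hspb8 thus fell on all 3 probe sets, but the estimates spanned 0.41 on the log2 scale, from 1.33-fold to 1.76-fold.

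Bag3 had 1 probe set, 1422452_at, which read 12.21, 12.21 and 12.28 in controls and 11.75, 11.84 and 11.83 in shRNA samples. The groups were 0.37 apart at their nearest arrays. Bag3 fell 1.35-fold, a difference of -0.43 (SE 0.0415, limma adjusted p = 2.13e-06), and 10.1% of all probe sets tested were this low or lower. Within an array, the log2 signal of Bag3 minus that of Hspb8 was -1.12 ± 0.0856 in controls and -1.01 ± 0.0622 in shRNA samples (SD, n = 3), a shift of 0.11 with a two-sided exact permutation p = 0.2. The test cannot reach below 0.1 with 3 arrays against 3. A greater fall of Hspb8 than of Bag3 was therefore not resolved on these probe sets, and with the probe sets of Hspb8 averaged the shift was 0.16 with the exact permutation p at its minimum, 0.1.

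Hspb3 and Hspb2 encode partners that form a complex of their own in differentiating muscle cells, and both fell, by different amounts. Hspb3, on 1449872_at, read 12.09, 12.08 and 12.09 in controls and 11.62, 11.64 and 11.67 in shRNA samples. With an SD of 0.00923 in controls it had the tightest group among the members, and it fell 1.36-fold (-0.44, SE 0.0379, limma adjusted p = 6.84e-07). Hspb2, on 1429888_a_at, read 12.61, 12.58 and 12.47 against 12.34, 12.42 and 12.37. Its groups were separated by 0.053, less than the SD of 0.0712 among its controls, and it fell 1.13-fold (-0.18, SE 0.0433, limma adjusted p = 0.00403). Of all probe sets tested 25.7% had a difference as low as that of Hspb2 or lower, and 9.44% one as low as that of Hspb3 or lower.

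Cryab, alpha-B-crystallin, a chaperone of desmin, was the brightest member, and its probe sets differed in what they showed. The brightest, 1434369_a_at, read 14.13, 14.07 and 14.13 in controls and 14.00, 14.05 and 14.08 in shRNA samples. These groups overlapped, and the difference of -0.067 did not pass (95% interval -0.14 to 0.0065, limma adjusted p = 0.114). The next, 1416455_a_at, at 13.50, 13.40 and 13.47 against 13.33, 13.31 and 13.33, fell by 0.13 (SE 0.0355, limma adjusted p = 0.00727). The dim 1435837_at, at 7.29, 7.09 and 7.14 against 6.82, 6.63 and 6.66, fell by 0.47 (SE 0.115, limma adjusted p = 0.00411). The shRNA mean of this dim probe set, 6.71, lay near 6.50, the lowest mean signal that was tested. Only 0.255% of all probe sets tested were brighter than 1434369_a_at, and across the array differences were small at such brightness. From 14 upward their 5th and 95th percentiles were -0.087 and 0.094, against -0.56 and 0.64 between 6 and 7, where 1435837_at lies. The call on the brightest probe set depended on the scaling, as it passed with each array centred on the median of its tested probe sets, which lowered the shRNA arrays by 0.064 against the controls (-0.13, limma adjusted p = 0.00738) and with quantile normalization (-0.080, 0.0042), and that on 1416455_a_at was lost without a variance trend (-0.13, limma adjusted p = 0.0556).

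Cryab and Hspb2 are neighbours on chromosome 9, known to be transcribed away from each other from a short shared region, and the RefSeq gene models of the 2 overlap, so signal cannot be fully assigned between them where a probe set lies in the overlap. Within an array, Cryab minus Hspb2 on the brightest probe sets was 1.56 ± 0.0837 in controls and 1.67 ± 0.0422 in shRNA samples (log2, SD, n = 3). The shift of 0.11 had a two-sided exact permutation p = 0.2, and with the 3 Cryab probe sets averaged it was -0.046 (exact permutation p = 0.5), so the direction depended on the probe sets used. The other RefSeq gene that overlaps Cryab, 2310030G06Rik, read 8.56 in controls and 7.99 in shRNA samples and fell by 0.56 (SE 0.102, limma adjusted p = 0.000425). The neighbour on the side of Hspb2, 1110032A03Rik, rose by 0.34 (SE 0.0481, limma adjusted p = 6.73e-05).

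Hspb6, also called Hsp20, a target of cyclic nucleotide-dependent kinases in muscle, was the member that rose. Its probe set 1436332_at read 12.73, 12.69 and 12.70 in controls and 13.13, 13.17 and 13.18 in shRNA samples. The lowest shRNA array was 0.39 above the highest control, and the difference was 0.45 (SE 0.0347, limma adjusted p = 2.52e-07), or 1.37-fold. Of all probe sets tested 11.3% were this high or higher, while between signals of 12 and 13 the 95th percentile of the differences was 0.39. The RefSeq model of Hspb6 overlaps that of Lin37, a gene of the DREAM cell cycle complex, and Lin37 rose by 0.56, from 10.77 to 11.32 (SE 0.0535, limma adjusted p = 1.98e-06). The RefSeq models of Hspb6 and Gm38670, of Hspb3 and Gm34586, and of Hspb8 and Gm36841 also overlap. Which transcript a probe in any of these overlaps would report was not tested.

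Hspb1, also called Hsp25 in mouse, is the stress-induced member that is phosphorylated downstream of p38 kinase and acts on actin filaments. On 1422943_a_at it read 12.23, 12.29 and 12.23 in controls and 12.29, 12.26 and 12.32 in shRNA samples. The groups overlapped, and the difference of 0.035 (SE 0.0379) did not pass (limma adjusted p = 0.46), with a 95% interval of -0.047 to 0.12. On 1425964_x_at, at 11.64, 11.62 and 11.58 against 11.71, 11.65 and 11.67, the groups were 0.0055 apart and the difference was 0.063 (95% interval -0.025 to 0.15, limma adjusted p = 0.212). Differences as large as those of Hspb3, Hspb6, Hspb7, Hspb8 and Bag3 lay outside both intervals. With the arrays centred on their medians both differences turned negative, -0.029 and -0.0011, and neither passed (limma adjusted p = 0.552 and 0.984).

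**Figure D2:**
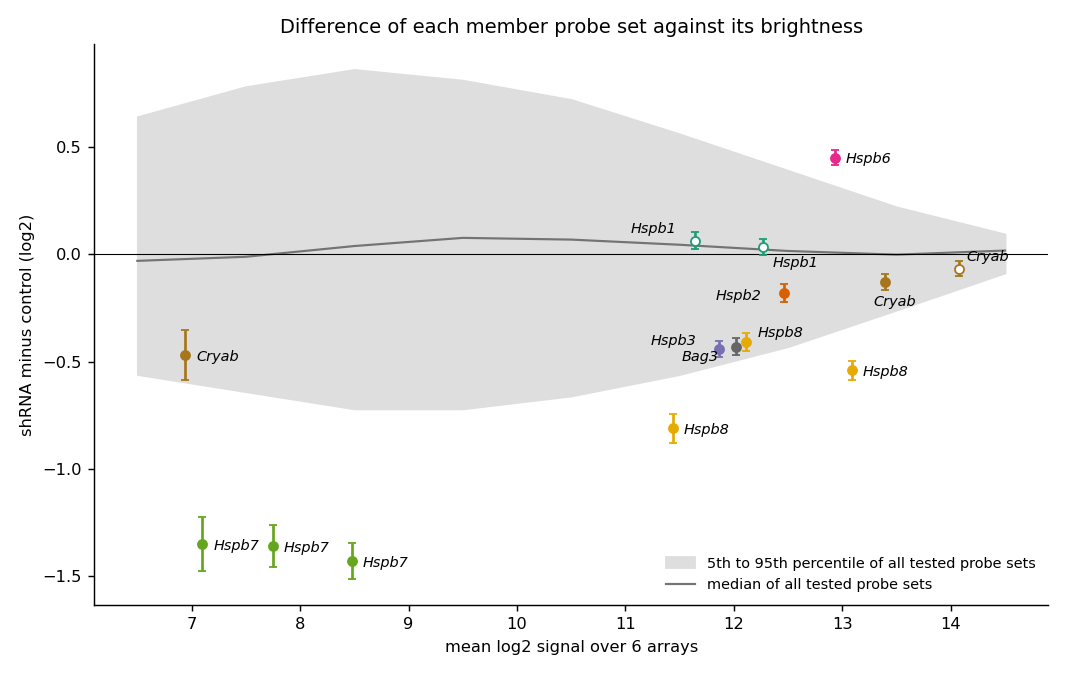
Difference of each member probe set, shRNA minus control on the log2 scale (points with limma's SE; filled where the adjusted p was under 0.05), against its mean log2 signal over the 6 arrays. The grey band runs from the 5th to the 95th percentile of all tested probe sets in steps of 1 in signal; Hspb7 lies lowest, between -1.43 and -1.35, and Hspb6 at 0.45 is the highest.

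The sequences before the start are shown for 4 members: Hspb1, which did not pass, Hspb3 and Hspb8, which fell, and Hspb7, which fell most. The windows of Hspb6, which rose, and of Bag3 are described by their matches only. RefSeq promoter windows of GRCm38.p6 were matched by symbol for 6 of the 8 members, all but Hspb2 and Cryab, and Hspb6 had a window for each of 2 starts. Each line gives the 250 bases before the annotated start, from chr5:135887669-135887918 (plus strand) for Hspb1, chr13:113663677-113663926 (minus) for Hspb3, chr4:141420529-141420778 (plus) for Hspb7 and chr5:116422865-116423114 (minus) for Hspb8. Capitals mark matches to the heat shock element pairs GAANNTTC and TTCNNGAA, the E-box CANNTG bound by Myod1 and Myog, TATAAA on either strand, the MEF2 site and the CArG box.
Hspb1: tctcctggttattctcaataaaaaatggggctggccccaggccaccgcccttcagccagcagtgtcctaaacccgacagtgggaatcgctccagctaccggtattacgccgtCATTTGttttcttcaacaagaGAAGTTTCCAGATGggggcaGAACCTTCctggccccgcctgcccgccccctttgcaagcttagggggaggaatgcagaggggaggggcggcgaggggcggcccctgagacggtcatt
Hspb3: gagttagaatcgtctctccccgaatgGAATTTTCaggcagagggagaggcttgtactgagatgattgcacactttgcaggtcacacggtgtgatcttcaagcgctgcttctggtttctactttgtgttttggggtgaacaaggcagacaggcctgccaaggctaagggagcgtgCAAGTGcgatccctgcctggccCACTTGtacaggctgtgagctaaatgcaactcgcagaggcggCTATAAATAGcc
Hspb7: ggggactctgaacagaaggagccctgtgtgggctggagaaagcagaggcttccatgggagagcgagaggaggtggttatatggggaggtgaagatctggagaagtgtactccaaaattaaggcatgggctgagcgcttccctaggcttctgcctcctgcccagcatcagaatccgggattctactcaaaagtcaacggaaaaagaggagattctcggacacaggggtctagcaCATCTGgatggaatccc
Hspb8: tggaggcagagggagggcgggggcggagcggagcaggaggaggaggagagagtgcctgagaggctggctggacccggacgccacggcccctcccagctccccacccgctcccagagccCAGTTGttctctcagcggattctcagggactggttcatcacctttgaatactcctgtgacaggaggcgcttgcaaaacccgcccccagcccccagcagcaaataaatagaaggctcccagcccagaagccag

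Hspb1 had 2 GAANNTTC matches, GAAGTTTC and GAACCTTC, the first of them followed directly by an E-box. The second Hspb6 start had the same GAAGTTTC and a TATAAA, and Hspb3 had GAATTTTC. Hspb7, Hspb8, Bag3 and the first Hspb6 start had no match to either heat shock pair in this window. Over 32851 such windows of all genes 6.69% held GAANNTTC and 7.17% held TTCNNGAA. Hspb3 alone had a MEF2 site, which contains its TATAAA, and 2.92% of all windows had a MEF2 site and 12.4% a TATAAA. E-boxes, present in 66.2% of all windows, numbered 2 in Hspb1 and Hspb3 and 1 in Hspb7 and Hspb8. None of the 7 windows had a CArG box, held by 1.47% of all. A match describes the letters only, and binding was not measured.

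Other genes of the pathway were read with 1 probe set each, beside a median of 0.046 over all 12408 genes, of which 35.7% rose and 22.8% fell. In the heat shock response list 6 of 14 tested genes rose, a share near that of all genes, and 0 fell, the median being 0.092, and 8 were not past the threshold of limma's test; with the arrays centred on their medians 3 rose and 2 fell, so the smaller of these changes depended on the scaling. The largest were the inducible Hsp70 genes. Hspa1b, on 1452318_a_at, read 12.12, 12.06 and 12.22 in controls and 12.61, 12.66 and 12.76 in shRNA samples, and rose 1.45-fold (0.54, SE 0.0506, limma adjusted p = 1.53e-06), with both of its other probe sets also higher. Hspa1a, on 1452388_at, read 7.63, 7.61 and 7.84 against 8.54, 8.47 and 8.55, and rose 1.78-fold (0.83, SE 0.0939, limma adjusted p = 8.44e-06). The 2 genes are near-identical copies, so which of them was measured is uncertain. Hspa4l, an Hsp110 relative, rose by 0.19, with all 4 other probe sets higher. Hsf1 and Hsp90ab1 are not analysed here.

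Partners in chaperone-assisted selective autophagy moved both ways, since 6 of 11 rose and 2 fell (median 0.13), and with the arrays centred 4 rose and 4 fell. Sqstm1, the autophagy receptor p62, rose most, from 12.43, 12.36 and 12.29 in controls to 12.72, 12.78 and 12.71 in shRNA samples, 1.30-fold (0.38, SE 0.0432, limma adjusted p = 9.03e-06). Vps16, a subunit of the tethering complex for lysosomal fusion, rose by 0.33, Stub1, the ubiquitin ligase CHIP, by 0.25, and Dnajb6, a J-domain co-chaperone, by 0.23. Synpo2, the Z-disc adaptor that binds Bag3, fell by 0.20 (limma adjusted p = 0.000187), with differences of -0.75 (limma adjusted p = 1.05e-06), -0.49 (0.00094) and 0.018 (0.763) on the remaining probe sets. Hspa8, the constitutive Hsp70, read 14.11 in controls and 14.10 in shRNA samples (limma adjusted p = 0.774), although a dim probe set fell by 0.39. Flnc, the filamin handled by this pathway, changed by -0.13 (limma adjusted p = 0.0381). That call was lost without control 2 or 3 or any 1 shRNA array, with changes of -0.15 to -0.082 and limma adjusted p of 0.0589 to 0.174, and its other probe set stood at -0.078 (limma adjusted p = 0.186).

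Among cytoskeletal clients 4 of 9 fell, 1 rose and 4 did not pass (median -0.024). Actn2, the Z-disc actinin, fell 1.55-fold, from 12.14, 12.16 and 12.36 to 11.65, 11.54 and 11.56 (-0.64, SE 0.0571, limma adjusted p = 1.05e-06). Ttn, titin, fell by 0.33 and Ldb3, a Z-disc PDZ protein, by 0.29, each with further probe sets lower. Flna, the filamin of non-muscle cells, rose by 0.25 (limma adjusted p = 7.09e-05). Desmin itself, Des, stood at 13.22 and 13.26 and did not pass (0.034, limma adjusted p = 0.414).

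Of the other BAG proteins Bag1 fell by 0.19 and Bag5 rose by 0.25, 2 of 5 did not pass, and the probe sets of Bag4 disagreed. A dimmer Bag5 probe set stood at -0.09 and did not pass (limma adjusted p = 0.441). The brightest for Bag4 fell by 0.25 (limma adjusted p = 0.0262), the dimmest rose by 0.33 (0.0157), and the fall was no longer called without control 1 (-0.16, 0.0895) or shRNA array 1 (-0.21, 0.0982). Centring called 4 of the 5 lower and 1 higher. Of 4 other genes listed beside the small heat shock proteins, Cryaa and Hspb9 lay below the filter. Odf1, tested only on the cross-hybridization-prone 1457659_x_at (-0.21, limma adjusted p = 0.0733), and Hspb11 (-0.15, 0.0531) did not pass. Both were called lower with centring and with quantile normalization. Whether each of these genes encodes an alpha-crystallin domain was not checked, so the list is no test of the family.

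Among 11 kinases that act on small heat shock proteins, or upstream of the kinases that do, 3 fell, 2 rose and 6 did not pass (median -0.031). With centring 6 fell and 1 rose. Prkg1, the cyclic GMP-dependent kinase whose class phosphorylates Hspb6, fell 1.71-fold, from 10.74, 10.74 and 10.80 to 10.00, 9.98 and 9.97 (-0.78, SE 0.0498, limma adjusted p = 5.38e-08), with its other probe set also lower. Mapk14, p38 alpha, which acts upstream of Hspb1 phosphorylation, fell by 0.43 (limma adjusted p = 1.3e-06), a second probe set stood at -0.38 (0.00388), and 2 dim ones did not pass. Mapkapk5 fell by 0.31 and Prkd1 rose by 0.33, whereas Mapkapk2, the main kinase of Hspb1, did not pass (0.030, limma adjusted p = 0.762). Map2k3, an activator of p38, rose by 0.16, a call lost under centring (0.097, limma adjusted p = 0.0921), quantile normalization (0.11, 0.0696) and spike-in scaling (0.15, 0.0639).

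**Figure D3:**
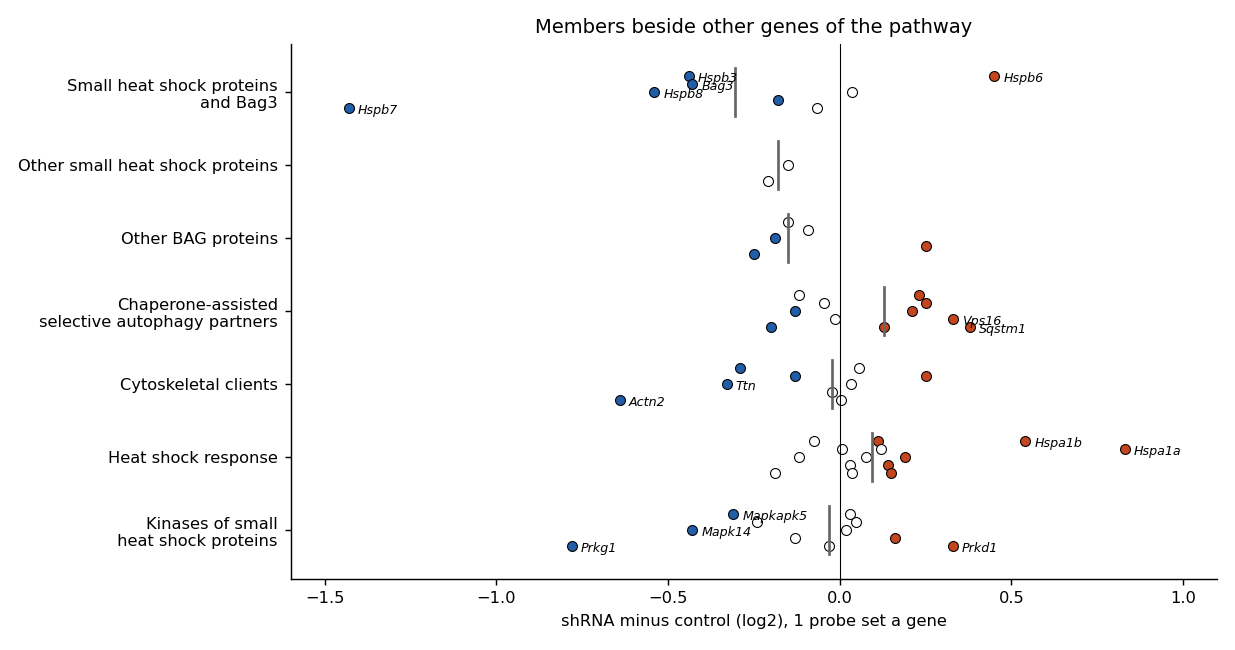
Difference of each gene, shRNA minus control on the log2 scale with 1 probe set a gene, for the 8 members and 6 lists of related genes (rows); blue points fell, red points rose, open points did not pass, and grey bars mark each list's median. The members run from Hspb7 at -1.43 to Hspb6 at 0.45, and the heat shock response list runs up to Hspa1a at 0.83; points are staggered vertically for legibility.

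The genes whose signal ran most like that of Hspb7, the member with the largest change, were Tor3a, Otog, Cdkn2b, Gde1 and Gm30873, with Pearson r of 0.9990 to 0.9997 over the 6 arrays. Such values mainly reflect the difference between the groups, which all of these genes share, and 307 genes had an r of at least 0.99, so this is a description with no test. Their differences ran from -0.86 for Cdkn2b to -1.93 for Gm30873.

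**Figure D4:**
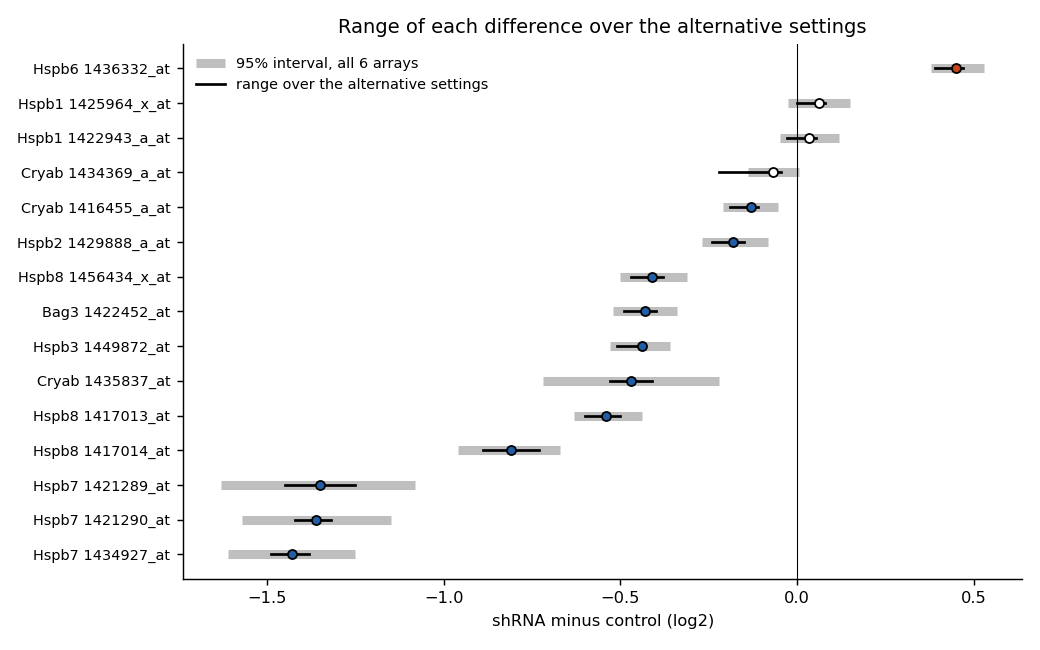
Difference of each member probe set, shRNA minus control on the log2 scale: points are the values from all 6 arrays (blue fell, red rose, open did not pass), grey bars their 95% intervals and black lines the range over the alternative settings, in which a gene's averaged probe sets are drawn with its brightest one. The lines of Hspb1 alone cross 0, and that of the brightest Cryab probe set reaches -0.22 where its probe sets are averaged.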

How the data were processed

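The deposited table holds 1 log2 signal per probe set and array, normalized by the authors; that scale was inferred from values of 4.48 to 14.6, and every array has the median 7.23 over all 45101 probe sets. PLIER and MAS5, programs that summarise probe intensities, are named in the submitters' processing notes without roles or versions; background correction is not given in the sources used here. Of the value columns, 0 lacked a sample. An array has no read depth, and 3 arrays per group limit the precision.

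Of 45101 probe sets, 34958 had 1 gene symbol in GEO's platform annotation, 932 had several and 9211 were unnamed here; 34754 were found in RefSeq's GRCm38.p6 gene table and 0 symbols changed. The 64 control probe sets and then the 40% with the lowest mean (18015) were left out. The other 27022 were tested with limma 3.58.1 in R 4.3.3 (lmFit, eBayes with a mean-variance trend, shRNA minus control, no covariates), with Benjamini-Hochberg adjustment over all of them and a threshold of 0.05. The calculation was tested on simulated data. In gene counts the brightest probe set stood for a gene, those ending in _x_at only where it had no other.

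The members and lists were chosen with earlier results of these data known. The genes named beside the members are, in each list, up to 3 increases and 3 decreases past the threshold with the largest size, with Hsf1, Hspa8, Stub1, Flnc and Dnajb6 throughout. The genes most like Hspb7 were the 5 with the highest Pearson r. Des, Mapkapk2, Lin37, 2310030G06Rik, 1110032A03Rik, Odf1 and Hspb11 were named after their values were seen. Alternatives were another scaling (each array centred on the median of its tested probe sets, quantile, spike-in controls), other filters, no variance trend, averaged probe sets, probe sets ending in _x_at or _s_at left out, a replicate block and leaving out each array.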

Additional observations from a re-analysis of the deposited data

How the results depend on the processing

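Leaving out each array in turn changed the call or direction of 0 member probe sets. Hspb7, Hspb8, Hspb3, Bag3, Hspb2 and the dim Cryab probe set stayed lower and Hspb6 higher past the threshold in every setting that tested them. The brightest Hspb7 probe set ran from -1.49 to -1.4, and Hspb7 with its probe sets averaged stood at -1.38. Hspb6 ran from 0.39 to 0.47. Centring each array on the median of its tested probe sets, which differed between the groups by 0.064, turned both Hspb1 differences (-0.029 and -0.0011). It also brought the brightest Cryab probe set past the threshold (-0.13), as did quantile normalization (-0.080). With its 3 probe sets averaged, Cryab as a gene passed too (-0.22). Without a variance trend Cryab 1416455_a_at no longer passed (-0.13, limma adjusted p = 0.0556). Cryab minus Hspb2 reversed with averaged probe sets (-0.046). The cause of these changes was not tested. Centring also moved the balance over all probe sets from 8214 higher and 6352 lower to 6674 and 8166.

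The replicate numbers are shared by the groups. Deviations from the group means of same-numbered arrays correlated at -0.134, -0.0616 and 0.0307, and no control array correlated best with its own. No shared deviation was thus seen, but 3 arrays per group cannot show whether same-numbered arrays were handled together. With the replicate block 13646 probe sets passed against 14566, and among members 11 were lower and 1 higher, as without it, while Flnc no longer passed (-0.13, limma adjusted p = 0.0682).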
